A study of Mus musculus with 4 samples.

Results

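Imprinted genes were followed domain by domain in RNA-seq of Hepa1-6, a cell line from a mouse liver tumour (hepatocellular carcinoma). The list holds 44 of the 54838 genes that the files name, taken by symbol and sorted into 19 chromosomal domains or groups. They were read in 2 libraries from control cells that carry the shNC hairpin and are labelled Setdb1 wild type, and in 2 libraries from cells that carry a hairpin against Setdb1, called the knockdown here. Setdb1 is a histone methyltransferase that places the H3K9me3 mark, and Hepa1-6 is the shared background of both groups. The design text speaks of subclones without giving their number, so a difference between subclones and an effect of the knockdown cannot be told apart. Nothing in the labels ties the 2 libraries of a group to separate cultures, and p-values therefore measure a library-to-library spread that may be technical.

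An imprinted gene is transcribed mainly from the copy inherited from one parent. Imprinted genes sit in clusters around a control region whose DNA is methylated on one parental copy, and a long non-coding RNA is often made from the other. In cells of the early embryo the zinc finger proteins ZFP57 and ZFP445 bind the methylated copy and recruit TRIM28, SETDB1 and DNA methyltransferases. A smaller group, with Slc38a4, Sfmbt2, Gab1 and Jade1, takes its parental bias from the H3K27me3 mark of the egg and keeps it mainly in extraembryonic tissue. Several imprinted genes act on fetal growth, among them the growth factor Igf2, its clearing receptor Igf2r and the adaptor Grb10. Neither the parental origin of a transcript nor DNA methylation was measured here.

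Sequencing depth was even, with 19513567 to 19615440 expected counts a library. A count of 0 allows up to 3 counts, or 0.153 to 0.154 CPM, CPM being a gene's count scaled to the size of its library. Setdb1 itself was at 1003 and 1159.64 expected counts in control 1 and control 2 and at 215 and 168 in knockdown 1 and knockdown 2, with a log2 fold change of -2.49 (SE 0.182, adjusted p = 1.495e-04, edgeR). The line expressed the hepatocyte markers Alb, Afp and Hnf4a, while Ttr was at 0, 0, 5 and 3 counts and Apoa1 at 7, 1, 7 and 2. Alb (log2 fold change 0.94) and Gpc3 (2.57) were higher in the knockdown and Hnf4a (-0.60) was lower, the last not without knockdown 2 (edgeR adjusted p = 0.135). Of 13 markers of other cell types 7 were tested, and Col1a1 (log2 fold change 2.17) and Epcam (1.06) were higher, Col1a1 not by limma on TPM (adjusted p = 0.0755). The summed level of these 13 markers, most of it Dcn, was 1520 to 1626 CPM in the control and 1706 to 1733 CPM in the knockdown libraries. The defining leukocyte gene Ptprc reached at most 4 counts and the endothelial gene Cdh5 at most 1. The fibroblast genes on the list were divided. Col1a2 and Col3a1 reached at most 1 count, while Dcn was at 28220 to 32301 counts and Col1a1 at 16, 15, 60 and 79. Other markers on the list had more counts in the knockdown without a call. The macrophage gene Cd68 was at 120, 120, 227 and 189 counts (edgeR adjusted p = 0.0561). The endothelial gene Pecam1 was at 9, 7, 39 and 20 (edgeR adjusted p = 0.0593). Krt19 was at 3, 4, 13 and 11 counts and Adgre1 at 0, 0, 5 and 3, while Sox9 was at 1161, 1140, 853 and 914. The part of these markers in the results below was not tested.

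Most of the imprinted list was silent or nearly so in these cells. No count was recorded in any library for 20 of the 44 members (45.5%), and 9 more had too few counts to be tested. The remaining 15 members (34.1%) could be tested. Over all 54838 named genes, many of them non-coding, 60.6% were at 0 and 23.4% were tested. Among the 36 protein-coding members 16 (44.4%) were at 0 throughout, against 29.5% of the 21921 protein-coding genes in the files, and 13 (36.1%) were tested, against 52.6%. The members thus were at 0 less often than all named genes and more often than protein-coding genes, and no test was made of either. Each library detected 20 to 22 members, so the number detected did not separate the groups.

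**Figure D1:**
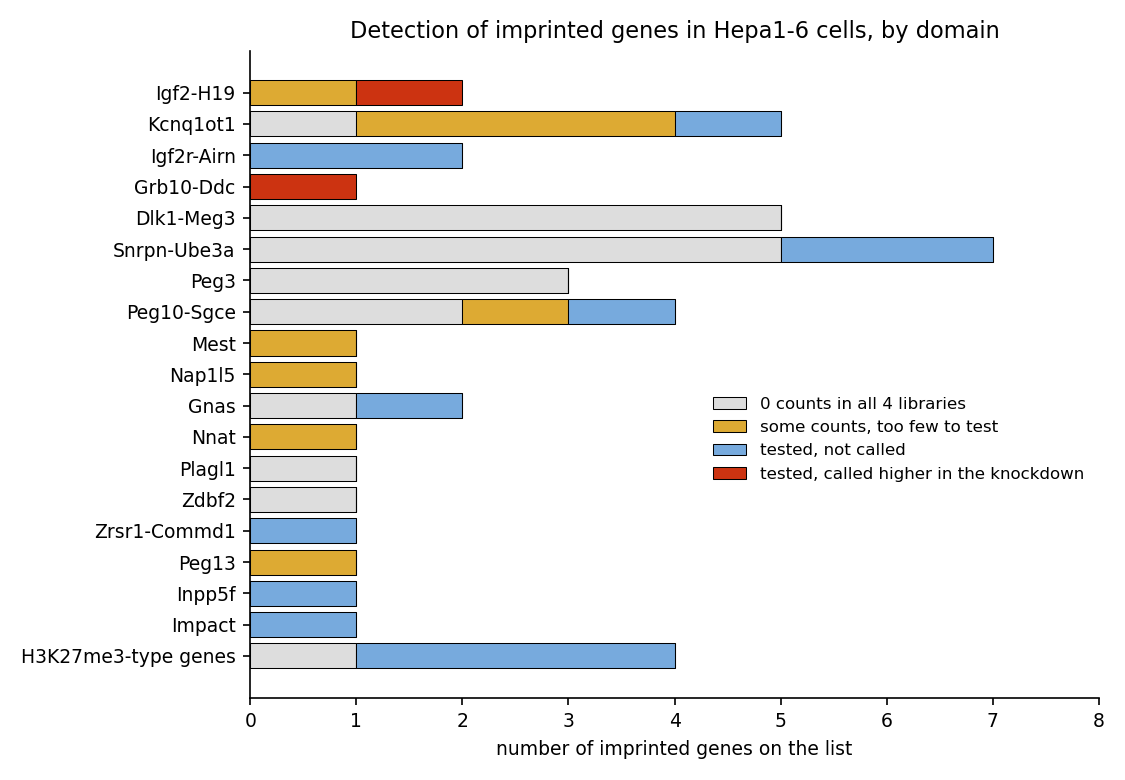
The bars count the listed imprinted genes of each domain by whether they had 0 counts in all 4 libraries, some counts but too few to test, or enough for a test. The Dlk1-Meg3, Peg3, Plagl1 and Zdbf2 bars are wholly in the 0 class, and only the Igf2-H19 and Grb10-Ddc bars hold a gene called higher in the knockdown.

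The silent members were grouped by position. In the Dlk1-Meg3 domain all 5 listed genes were at 0. They were the paternally expressed Dlk1, a delta-like transmembrane protein, and Rtl1, a retrotransposon-derived gene, and the maternally expressed non-coding RNAs Meg3, Rian and Mirg. All 3 genes of the Peg3 domain, Peg3, Usp29 and Zim1, were at 0 too, as were Plagl1, a zinc finger transcription factor, and Zdbf2. In the Prader-Willi and Angelman region 5 of 7 genes were at 0, namely Snrpn, Snurf, Ndn, Magel2 and Peg12. The other members at 0 were Peg10, Sgce, Cdkn1c, Nespas and Sfmbt2. By parental copy, 15 of the 29 paternally expressed members and 5 of the 15 maternally expressed members were at 0.

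Of the 15 tested members 2, Grb10 and Igf2, were called higher in the knockdown and 0 were called lower, a call being a Benjamini-Hochberg adjusted p below 0.05 from edgeR's quasi-likelihood F-test. Over all 12821 genes tested 5.96% were called, 4.20% higher and 1.76% lower. The other 13 members were not called, and 5 of the 15 had an unadjusted p under 0.05, where the share over all genes was 21.3%. Those 5 were Grb10, Igf2, Ppp1r9a, Slc38a4 and Gab1, with 0 of them lower, and DESeq2 and limma on TPM called 0 members lower too. The median log2 fold change of the tested members was 0.003, beside -0.005 over all genes tested, with 8 members above 0 and 7 below, where 49.5% of all genes tested lay above 0. The CPM of the groups did not overlap for 8 of the 15 members, 6 of them higher and 2 lower in the knockdown, and the share over all genes tested was 51.9%. The called genes were one maternally and one paternally expressed gene.

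**Figure D2:**
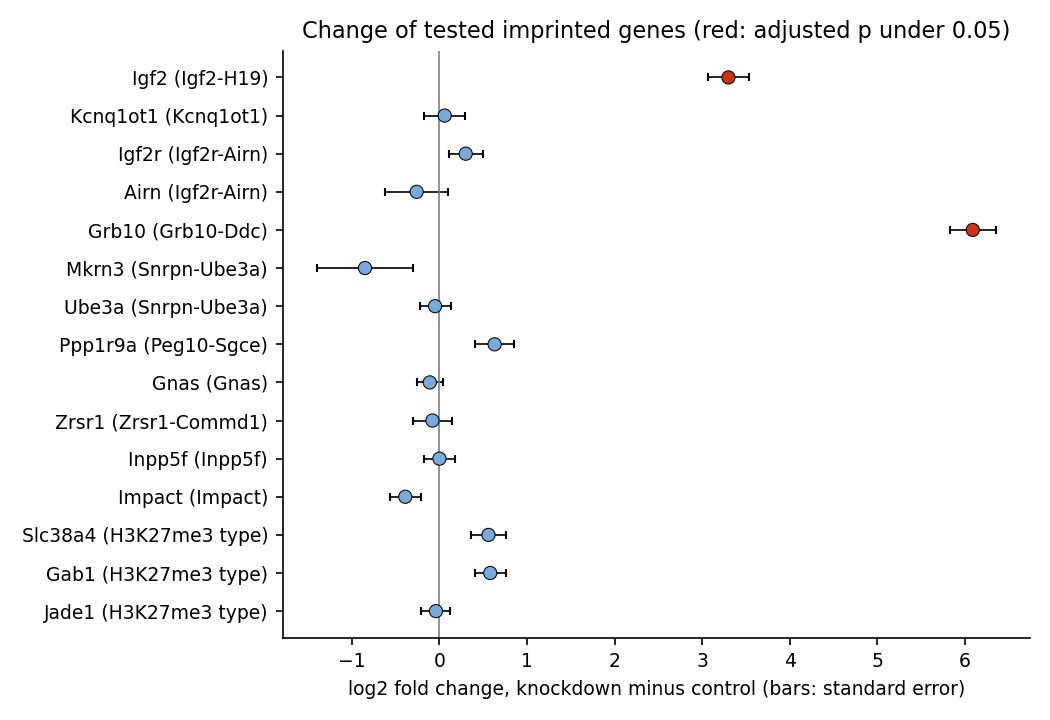
Each point is the log2 fold change, knockdown over control, of a tested imprinted gene from the edgeR fit, with its standard error as the bar. Grb10 (6.09) and Igf2 (3.30) stand apart from the other 13, which lie between -0.85 and 0.63.

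The called genes share a place in insulin and insulin-like growth factor signalling. Grb10 is an adaptor protein that binds the activated insulin and IGF1 receptors and restrains their signal, and Igf2 is a secreted growth factor. The windows below are the 250 bases before annotated transcript starts, read from RefSeq on GRCm38.p6 in the direction of transcription. CpG dinucleotides, which are the sites of DNA methylation, are in capitals and all other bases in lower case. The first Grb10 window is chr11:12037421-12037670, minus strand, and the second, at a start further into the gene, is chr11:12027972-12028221, minus strand. RefSeq gives Igf2 4 windows, all on the minus strand, of which the first, chr7:142666817-142667066, and the fourth, chr7:142657497-142657746, are printed. The second, chr7:142661272-142661521, and the third, chr7:142658805-142659054, overlap exons of Igf2 and are described by their CpG counts alone. They are shown so that a reader can set the base composition of these starts beside the change in RNA.
Grb10 outer start: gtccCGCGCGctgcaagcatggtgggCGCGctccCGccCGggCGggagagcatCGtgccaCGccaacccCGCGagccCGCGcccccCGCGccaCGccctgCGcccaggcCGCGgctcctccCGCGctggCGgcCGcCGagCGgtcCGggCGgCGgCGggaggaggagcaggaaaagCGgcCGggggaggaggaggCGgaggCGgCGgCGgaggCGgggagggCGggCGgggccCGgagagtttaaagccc
Grb10 inner start: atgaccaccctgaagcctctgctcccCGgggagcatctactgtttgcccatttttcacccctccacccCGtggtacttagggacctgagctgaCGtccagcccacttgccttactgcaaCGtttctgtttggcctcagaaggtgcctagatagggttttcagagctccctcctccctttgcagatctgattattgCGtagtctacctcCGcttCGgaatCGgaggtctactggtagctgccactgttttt
Igf2 start 1: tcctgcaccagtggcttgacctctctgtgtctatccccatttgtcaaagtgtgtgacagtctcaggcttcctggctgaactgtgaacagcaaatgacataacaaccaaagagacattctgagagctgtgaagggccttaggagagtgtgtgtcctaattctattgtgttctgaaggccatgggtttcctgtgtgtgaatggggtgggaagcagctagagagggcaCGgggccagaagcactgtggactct
Igf2 start 4: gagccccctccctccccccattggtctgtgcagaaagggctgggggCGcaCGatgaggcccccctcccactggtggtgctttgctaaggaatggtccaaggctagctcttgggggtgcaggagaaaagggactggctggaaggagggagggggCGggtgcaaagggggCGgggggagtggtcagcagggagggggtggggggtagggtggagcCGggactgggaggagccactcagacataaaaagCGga
The outer Grb10 window held 40 CpG and was 81.2% G and C, and 98.7% of the 32841 promoter windows of this length held fewer CpG. The inner Grb10 window held 8 CpG. The 4 Igf2 windows held 1, 10, 22 and 6 CpG in order from the first to the fourth, beside a median of 6.00 over all windows. The third Igf2 window was 68.8% G and C, and 85.2% of all windows held fewer CpG. The hexamer TGCCGC, the motif that ZFP57 binds when its CpG is methylated, was searched on both strands. It was in none of the 28 windows of 14 tested members. The windows were not chosen to cover control regions, so the search cannot show whether those hold the motif. The hexamer was in 7 of the 58 windows of the 35 members that matched RefSeq by symbol (12.1%) and in 8.68% of all windows.

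Grb10 (chromosome 11, 11930508 to 12038683, minus strand, GRCm38) went from close to silence to a moderate level. It gave 10 and 9 expected counts in control 1 and control 2, and 628 and 672 in knockdown 1 and knockdown 2. In CPM these were 0.510 and 0.461 in the control libraries and 32.0 and 34.3 in the knockdown libraries. Both knockdown libraries were far above both controls, and the difference was wide beside the spread within each group. The mean went from 0.486 ± 0.0346 to 33.2 ± 1.64 CPM (SD, n = 2 each), a log2 fold change of 6.09 (SE 0.263, 68.1-fold, edgeR adjusted p = 1.421e-05). That was the 24th largest log2 fold change of the 12821 genes tested. On the log2(TPM + 1) scale, which understates the change of a low gene, limma gave 3.10 (adjusted p = 0.00145). In an edgeR fit of all 54838 named genes with no filter on low counts, 0 genes were called while 3378 had an unadjusted p under 0.05, and Grb10 and Igf2 both had an adjusted p of 0.223. On the length-scaled TPM measure Grb10 moved from 0.135 to 8.76 TPM, from place 14 of the 15 tested members to place 9. Whether more cells expressed it or each cell held more of its RNA cannot be told apart in bulk RNA, and the same holds for each gene below.

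Igf2 (chromosome 7, 142650766 to 142666816, minus strand) was detected in the control and was higher in the knockdown. Its expected counts were 55.33 and 49.71 in the control and 593.39 and 437.47 in the knockdown libraries, or 2.82, 2.55, 30.3 and 22.4 CPM in the same order. The groups did not overlap, and the 2 knockdown libraries differed from each other by more than the 2 controls did. The mean went from 2.69 ± 0.195 to 26.3 ± 5.58 CPM (SD, n = 2 each), with a log2 fold change of 3.30 (SE 0.239, 9.86-fold, edgeR adjusted p = 1.495e-04), the 86th largest. In TPM Igf2 moved from 2.06 to 16.8, from place 11 to place 4 of the 15 tested members, between Ube3a and Impact.

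Other gene models share the Igf2 locus, and RSEM divided reads among them, which is why the Igf2 counts are not whole. Gm49394 lies on the same strand and shares exons with Igf2. It was at 55.67 and 25.08 counts in the control and 75.98 and 82.74 in the knockdown, and was not called (log2 fold change 0.98, SE 0.357, edgeR adjusted p = 0.149). With both models summed the locus gave 111, 74.79, 669.37 and 520.21 counts and a log2 fold change of 2.68 (SE 0.240, 6.43-fold, edgeR adjusted p = 3.403e-04), an alternative chosen after seeing the data. The antisense gene Igf2os, named after its values were seen because it overlaps Igf2, had 0 and 2.21 counts in the control and 13.63 and 13.79 in the knockdown. Its summed counts were 12.4 times higher in the knockdown, with a 95% exact interval of 3.39 to 117 that covers counting error only. It was called by edgeR (adjusted p = 0.0307) but not by DESeq2 (0.115) or by limma on TPM (0.633). Whether strand was used in counting is not given in the sources used here, so reads of Igf2 and Igf2os may not be fully separate.

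H19, the maternally expressed non-coding RNA that shares enhancers with Igf2, had 0, 1, 1 and 0 counts. The locus thus had Igf2 RNA in every library and next to no H19 RNA in either group. Igf2r, the maternally expressed receptor that clears IGF2 and carries lysosomal enzymes, was at 167 and 174 counts in the control and 217 and 200 in the knockdown. Its groups did not overlap, at 8.72 ± 0.280 against 10.6 ± 0.596 CPM (SD, n = 2 each), but the log2 fold change of 0.30 (SE 0.195) was not called (edgeR adjusted p = 0.412). Airn, the paternally expressed non-coding RNA that runs antisense to Igf2r and silences it, was at 26, 27, 19 and 25 counts (log2 fold change -0.26, SE 0.357, edgeR adjusted p = 0.738).

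**Figure D3:**
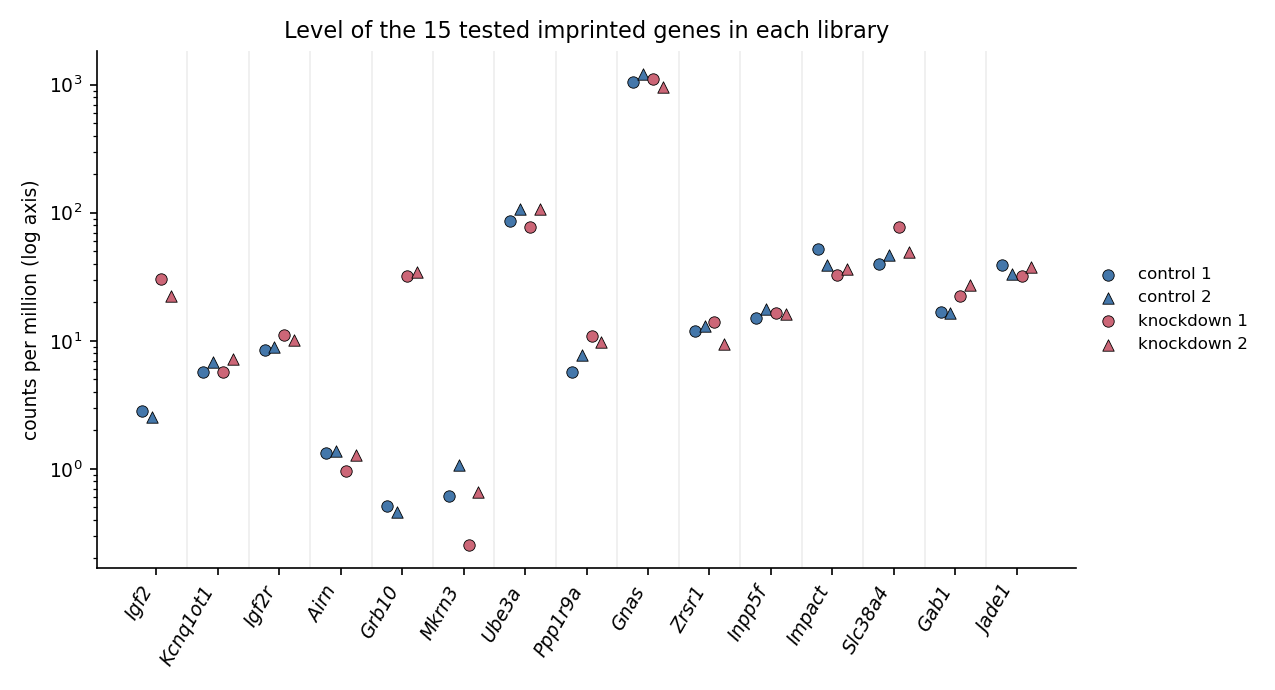
Each point is the level of a tested imprinted gene in a library, in CPM on a log axis, with control libraries in blue and knockdown libraries in red. The groups are far apart at Igf2 and Grb10, and Gnas lies above all others at 1129 and 1034 CPM on average.

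The Kcnq1ot1 domain, next to Igf2 on chromosome 7, had counts from its non-coding gene and few from the 4 other members listed there. Kcnq1ot1 has a length of 93092 bases, and on the length-scaled TPM measure it averaged only 0.0850 in each group. That was the lowest of the tested members, and below Ascl2 (0.165 in the control, 0.210 in the knockdown) and Slc22a18 (0.130 and 0.250). Some outer genes of the domain on a further list of imprinted genes were well expressed and not called, among them Cd81 at 4746 to 6321 counts and Nap1l4 at 2852 to 3503. Of others on that list, Tnfrsf23 had at most 9.56 counts. Dhcr7, at the edge of the domain, was called lower (log2 fold change -0.68, edgeR adjusted p = 0.0203). Kcnq1ot1, a long paternally expressed RNA, was at 111, 133.60, 111.20 and 141.68 counts, with overlapping groups (log2 fold change 0.06, SE 0.236, edgeR adjusted p = 0.922). Of the maternally expressed genes, Cdkn1c, a cell cycle inhibitor, was at 0, and Phlda2, a brake on placental growth, had 1 count in knockdown 1 alone. Ascl2, a transcription factor of placenta and intestine, had 2 counts in each control and 5 and 4 with the knockdown, so that the summed counts stood in a ratio of 2.25 (95% exact interval 0.627 to 9.98). The transporter gene Slc22a18 had 4 and 1 against 4 and 6 counts, summing to 5 and 10, with an interval of that ratio from 0.622 to 7.44. Both intervals include no difference, so a change of this size was not detectable at this depth.

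Of the 7 members in the Prader-Willi and Angelman region, Ube3a and Mkrn3 were tested. Atp10a, a gene of the region on the further list, was tested too and not called (2071 to 2874 counts, log2 fold change -0.12, SE 0.163). Ube3a, a ubiquitin ligase that is imprinted in neurons and expressed from both copies in most other cells, gave 1684.39, 2074.63, 1528.73 and 2070.62 counts. The groups overlapped, at 96.1 ± 14.4 CPM in the control and 91.9 ± 19.7 in the knockdown (SD, n = 2 each), and the log2 fold change was -0.05 (SE 0.177). Mkrn3, a paternally expressed ring finger gene, was low at 12, 21, 5 and 13 counts. Its log2 fold change of -0.85 (SE 0.552, edgeR adjusted p = 0.413) was the most negative of the tested members, and its groups overlapped.

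The remaining domains with methylated control regions gave 5 tested genes. Gnas, which encodes the stimulatory G protein alpha subunit along with imprinted alternative transcripts, had the highest level of all members, at 919, 1067, 952 and 811 TPM. With overlapping groups, Gnas had a log2 fold change of -0.11 (SE 0.148). Its antisense partner Nespas was at 0. A gene-level row adds the transcripts of Gnas together, so an imprinted transcript that is a small part of it could change without showing here. Zrsr1, a splicing-factor-related gene inside an intron of Commd1, was at 234.89, 253, 272 and 185 counts (log2 fold change -0.08, SE 0.221). Inpp5f, an inositol phosphatase gene with an imprinted short variant, was at 296, 346, 321 and 317 counts (0.00, SE 0.177). For both of them the knockdown and control levels overlapped.

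Impact and Ppp1r9a had groups that did not overlap, without a call. Impact (chromosome 18), a paternally expressed regulator of translation that restrains the kinase GCN2, gave 1018 and 761 counts in the control and 643 and 706 in the knockdown. The means were 45.5 ± 9.15 and 34.4 ± 2.33 CPM (SD, n = 2 each), and Impact was not called (log2 fold change -0.39, SE 0.179, edgeR adjusted p = 0.249). Ppp1r9a encodes neurabin, an actin-binding protein that holds protein phosphatase 1, and sits in the Peg10-Sgce domain. Its counts were 111 and 152 in the control and 211 and 192 in the knockdown, or 6.73 ± 1.50 and 10.3 ± 0.669 CPM (SD, n = 2 each). The log2 fold change of 0.63 (SE 0.223) had an edgeR adjusted p of 0.139, which became 0.0490 without control 2. On the TPM scale the groups overlapped, at 7.96 and 12.2 TPM in the control and 11.2 and 10.2 TPM in the knockdown libraries. Asb4, in the same domain, had 1 or 2 counts in each library.

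Of the genes whose bias comes from H3K27me3, 3 of 4 were tested and 0 were called by edgeR, DESeq2 or limma on TPM. Slc38a4 and Gab1 had an unadjusted edgeR p under 0.05, where the share over all genes tested was 21.3%. Slc38a4, a transporter of neutral amino acids that the liver expresses, was at 781 and 910 counts in the control and 1514 and 968 in the knockdown. Knockdown 1 stood well above the other 3 libraries, and knockdown 2 was close to control 2. Over all 4 libraries Slc38a4 was not called (log2 fold change 0.56, SE 0.204, edgeR adjusted p = 0.146), but without knockdown 2 it was 0.85 with an adjusted p of 0.00205. Gab1, a docking protein for growth factor receptors, was at 331.88 and 321 against 437 and 531 counts, so its groups did not overlap. Its means were 16.7 ± 0.341 and 24.7 ± 3.43 CPM (SD, n = 2 each), with a log2 fold change of 0.58 (SE 0.178, edgeR adjusted p = 0.0952). Jade1, a subunit of a histone acetyltransferase complex, was at 761, 649, 628 and 731 counts, and its groups overlapped (log2 fold change -0.04, SE 0.166).

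Several imprinted genes lie inside or across a larger gene. At Mest, Nap1l5, Peg13 and Nnat the larger gene was expressed and the imprinted gene had few counts or none. Zrsr1 was expressed along with its host Commd1. Kcnq1ot1 had counts, though a low TPM, with its host Kcnq1 at 0. Mest, which overlaps the end of Copg2, had at most 2.04 counts in any library beside 914.95 to 1102.95 counts of Copg2. Nap1l5, inside Herc3, had 1, 0, 3 and 0 counts, while Herc3 ran from 360 to 670. Peg13, a non-coding RNA inside Trappc9, had 1 count in each control and 0 in the knockdown libraries, while Trappc9 ran from 351 to 513. Nnat, a small membrane proteolipid gene inside Blcap, had 6, 6, 5 and 2 counts beside 1543 to 2442 of Blcap. The summed Nnat counts of the knockdown were 0.582 times those of the control (95% exact interval 0.194 to 1.60). The hosts Copg2, Herc3, Trappc9 and Blcap were tested and not called.

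RSEM writes for each library a mean transcript length, weighted by the estimated share of each isoform, which is a measure of isoform use. For 4 of the 15 tested members the lengths of the groups did not overlap, and the share of this over all genes was not computed. For 2 of the 4, Igf2 and Ppp1r9a, the group means also lay at least 1.1-fold apart. Both conditions together held for 8.29% of all genes tested. The mean length of Igf2 was 1889 and 1938 bases in the control and 2122 and 2278 in the knockdown, longer by a ratio of 1.15. That of Ppp1r9a was 1157 and 1064 against 1444 and 1442 bases, a ratio of 1.30. The length of Grb10 was 4755 bases in both controls and 4870 and 4945 in the knockdown, a ratio of 1.03, and that of Impact had a ratio of 1.07. At 9 and 10 counts the Grb10 isoforms of the controls rest on very few reads. These lengths are estimates without an error of their own, and no test was made on them.

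**Figure D4:**
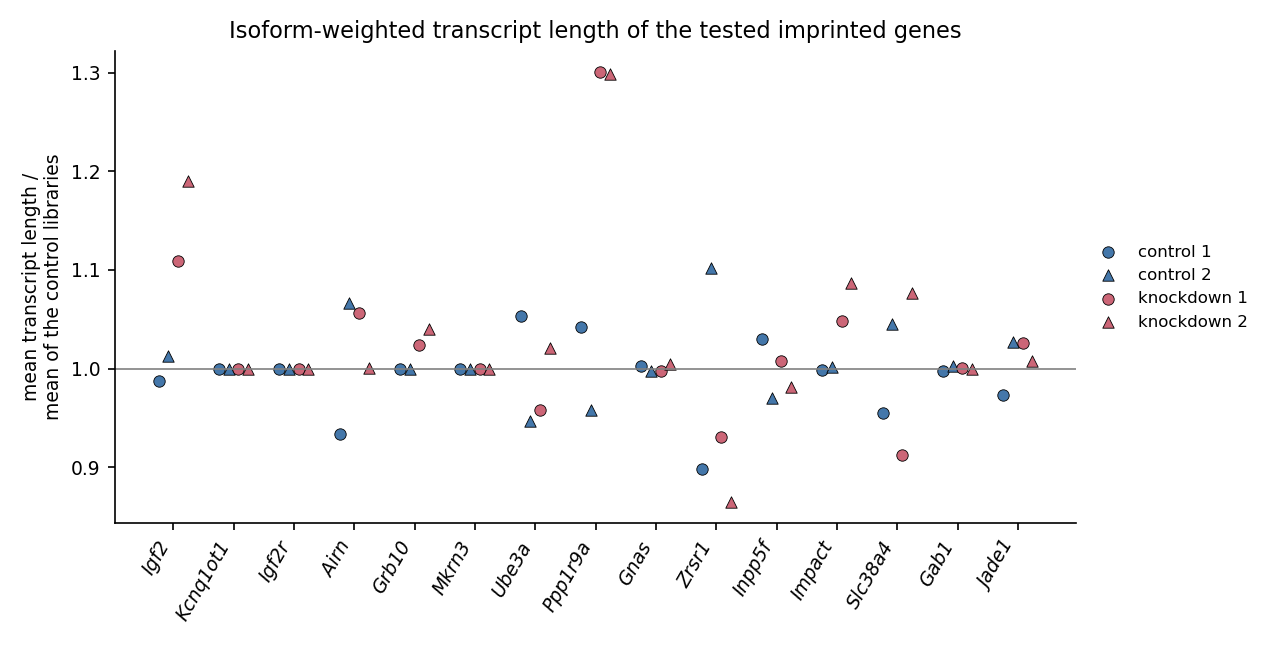
Each point is the isoform-weighted mean transcript length of a tested imprinted gene in a library, divided by the mean of the 2 control libraries. Both knockdown libraries lie above both controls at Igf2, Grb10, Ppp1r9a and Impact, and the ratio of group means is highest for Ppp1r9a at 1.30.

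Genes around the imprinted members were called about as often as genes in general. Of 997 genes outside the list that start within 500 kb of a member's start, 131 were tested, 5 were called higher and 5 lower, or 7.63% against 5.96% of all genes tested. Their median log2 fold change was 0.010. Beside Grb10, the decarboxylase gene Ddc, which is imprinted in fetal heart, was at 230, 295, 430 and 480 counts (log2 fold change 0.81, SE 0.188, edgeR adjusted p = 0.0368). That call was lost without control 1 (adjusted p = 0.0516) and without knockdown 2 (0.112), and limma on TPM did not make it (0.106). Around Igf2, Igf2os is 1 of the 5 neighbours called higher (log2 fold change 3.66, edgeR adjusted p = 0.0307). It overlaps Igf2 and may share its reads, so it is not an independent neighbour. The tested neighbours Ctsd (log2 fold change 0.15), Mrpl23 (-0.34), Cd81 (0.29) and Tssc4 (-0.03) were not called. The Dlk1-Meg3 domain had no tested neighbour at all, with 106 to 109 genes around each of its 5 members.

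Around Slc38a4 on chromosome 15, the related transporter genes moved in opposite directions. Slc38a1, a glutamine transporter gene, rose from 456 and 463 counts to 1687 and 1917.82 (log2 fold change 1.98, SE 0.149, edgeR adjusted p = 1.495e-04). Slc38a2, which encodes a transporter of small neutral amino acids, fell from 15537 and 12749 to 8696 and 8907 counts (log2 fold change -0.67, SE 0.148, edgeR adjusted p = 0.0292). For both genes the groups did not overlap, and Slc38a4 itself, in the same cluster, was not called. Near other members, Acat2, a cholesterol pathway thiolase gene close to Igf2r, fell (log2 fold change -1.04, edgeR adjusted p = 0.00513), and Ube2h, a ubiquitin-conjugating enzyme gene near Mest, rose (0.61, adjusted p = 0.0239). Limma on TPM did not call Ube2h (adjusted p = 0.0947).

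**Figure D5:**
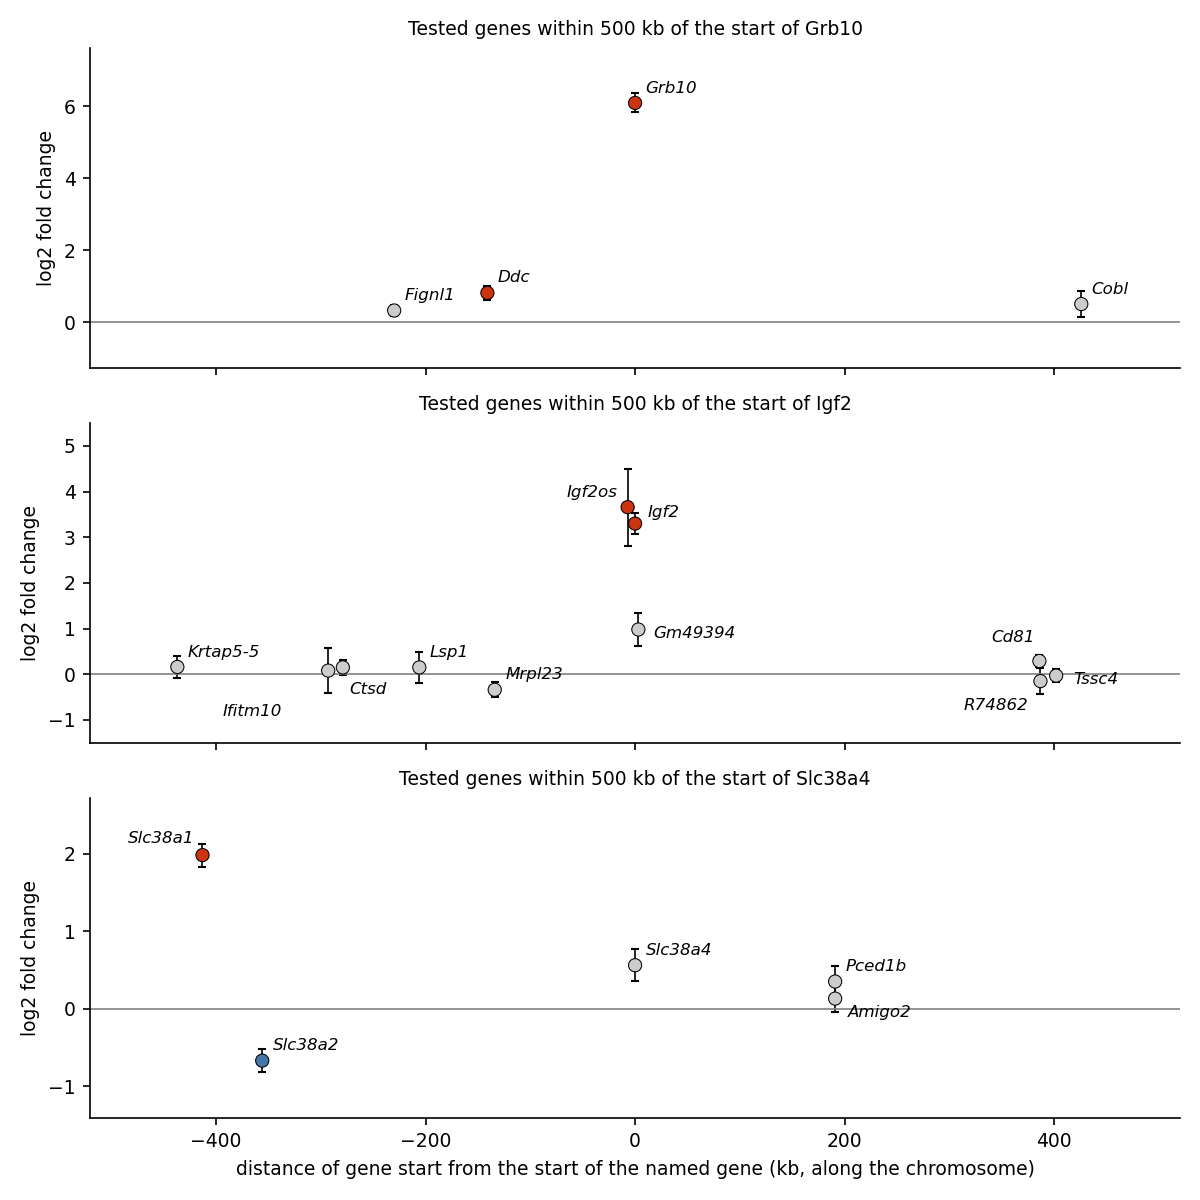
The panels show the log2 fold change with its standard error of each tested gene within 500 kb of Grb10, Igf2 and Slc38a4 by its distance in kb, with genes called higher in red, lower in blue and not called in grey. Grb10 (6.09) and Igf2 (3.30) rise above their neighbours, Igf2os (an antisense gene) excepted, while in the Slc38a4 panel Slc38a1 is called higher and Slc38a2 lower.

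The further list held 43 other imprinted genes or genes of the same domains. Of these, 42 were in the files, 18 were at 0 and 20 were tested. Of the tested genes 2 were called higher, 1 lower and 17 neither. All of the called genes also count among the called neighbours above, so the lists are not separate readings. Over all genes tested 5.96% were called, 4.20% higher and 1.76% lower. The median log2 fold change of the tested genes of the list was 0.082, beside -0.005 over all genes. The 2 higher genes were Ddc and Pon3, a lactonase gene in the Peg10-Sgce domain, which rose from 509 and 605 to 1093 and 1097 counts (log2 fold change 0.99, SE 0.152, edgeR adjusted p = 0.00586). The lower gene was Dhcr7, the last enzyme of cholesterol synthesis, placed at the edge of the Kcnq1ot1 domain, which went from 2446 and 2604 to 1687 and 1447 counts (log2 fold change -0.68, SE 0.138, edgeR adjusted p = 0.0203). Without knockdown 2 the Dhcr7 call was lost (adjusted p = 0.0724).

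Genes that act in keeping imprints were read from a list of 25. Of these 21 were tested, 1 was called higher, 1 lower and 19 neither, beside 5.96% called over all genes tested, and the median log2 fold change was -0.111. Dnmt3l and Ctcfl were at 0 in all libraries, and Tet1 (at most 1 count) and Dppa3 (at most 4) had too few counts to test. The gene called higher was Atf7ip, the partner that stabilises SETDB1, at 1846 and 1796 counts in the control and 4482 and 3238 in the knockdown (log2 fold change 1.09, SE 0.166, edgeR adjusted p = 0.00554). By limma on TPM it was not called (adjusted p = 0.0743). The gene called lower was Setdb1, the target of the hairpin, so that call is no separate result about the list. Zfp57 was at 825, 766, 705 and 560 counts (log2 fold change -0.32, SE 0.165, edgeR adjusted p = 0.303). Zfp445 (0.14), Trim28 (-0.11), Dnmt1 (-0.37) and Uhrf1 (-0.01) were not called.

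Insulin and IGF genes that act with Igf2 and Grb10 were called about as often as genes in general. Of 28 listed genes 20 were tested, 1 was called higher and the other 19 were not called, where 5.96% of all genes tested were called, with a median log2 fold change of -0.112. The higher gene was Igfbp4, a secreted protein that holds IGFs, at 34001 and 35384 counts in the control and 59369 and 58230 in the knockdown (log2 fold change 0.77, SE 0.148, edgeR adjusted p = 0.0155). It was not called by limma on TPM (adjusted p = 0.148). Insr, the insulin receptor, was at 1084 to 1335 counts (log2 fold change 0.11, SE 0.148), and the related adaptors Grb7 (0.11) and Grb14 (0.01) were not called. Igf1r, the main signalling receptor for IGF2, had only 7 to 11 counts in each library and was not tested.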

How the data were processed

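Library preparation used total RNA and a strand-keeping kit (NEBNext Ultra Directional), per the labels' protocols, and titles put 4 libraries into 2 groups. The submitters' processing notes list FastQC, STAR, RSEM and DESeq2, and mm10 or GRCm38 as build, with no version or role. The deposited expected counts, per the file headers, are RSEM estimates that divide a shared read among genes, and many are therefore fractional. TPM values were scaled by the authors to a fixed sum after division by effective length, and the deposited FPKM values were not used. Annotation release and strand setting were not given in the sources used here.

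The 4 files held 115821 rows each, 54838 of them named genes, and 54723 of these matched GENCODE M21 on GRCm38, which gave coordinates. The other 60983 rows, loci named by position, stayed out of the fit. Expected counts were rounded, filtered with filterByExpr, scaled by TMM and compared by the quasi-likelihood F-test of edgeR 4.0.16 (R 4.3.3, legacy = FALSE, no covariates), with Benjamini-Hochberg adjustment over all 12821 genes tested and a threshold of 0.05. The fit had 2 residual degrees of freedom and, by pooling over genes, 7.52 prior degrees of freedom. With 2 libraries against 2 an exact permutation test cannot go below 0.333. The script was tested on simulated data. CPM used the total over all rows of a file.

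The alternatives were DESeq2 1.42.0, its size factors in edgeR, limma 3.58.1 on log2(TPM + 1), other filters, a legacy fit, a joint fit with the loci, a block on replicate number and each library left out. The text names every member that passed the threshold or reached 10 counts in a library, the other members by counts, and up to 6 called genes in each further list by smallest p. Members and lists were chosen with earlier results of these data known.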

Additional observations from a re-analysis of the deposited data

Results flagged for a closer look

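Rows of the files that are named by position, which the tests on named genes leave out, held signal near 2 imprinted genes. Within 100 kb of the members lay 123 such loci, of which 28 had any count and 10 had at least 10 counts. At 6 of them both knockdown libraries were above both controls and the knockdown sum was above the limit that the control counts allow, so they are given here as values. None of the 6 was tested. How often these conditions hold over all 60983 position-named rows was not computed. The 6 therefore cannot be read as a trait of the regions around imprinted genes.

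Near Nap1l5, 5 of these loci formed a row on the minus strand of chromosome 6 from 58817718 to 58824866, 80.4 to 86.9 kb from the gene. Their knockdown libraries summed to 89.38, 272.44, 60.20, 26.42 and 50.70 expected counts in the order of their position. Together they had 57.80 and 24.87 counts in the control libraries and 255.64 and 243.50 in the knockdown libraries. Nap1l5 itself had 1, 0, 3 and 0 counts.

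The sixth locus lay 44.2 kb from Asb4 on the plus strand of chromosome 6, from 5477254 to 5478456. It had 1.17 and 0 counts in the control libraries and 18 and 31.64 in the knockdown libraries, a knockdown sum of 49.64, while Asb4 had 1 or 2 counts in each library. RSEM divides reads among repeated copies, so single loci are less certain than the row as a whole.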

How the results depend on the processing

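With the edgeR settings of the report 2 members were called higher and 0 lower. Over all genes 538 were higher and 226 lower. With no filter on low counts 0 members and 0 genes were called in either direction, although 3378 genes and 4 members had an unadjusted p under 0.05. Limma on TPM called 245 genes higher and 89 lower. When each library was left out in turn, 2 to 3 members were higher and 0 to 0 lower, and over all genes 555 to 983 were higher and 193 to 704 lower. The upper ends, 983 and 704, came without control 1, and without knockdown 1 462 were lower. Grb10 stayed between 6.00 and 6.18 on the log2 scale in those fits, and Igf2 between 3.07 and 3.50. The cause of these moves was not tested.

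Some members that were not called changed sign. Kcnq1ot1 was -1.23e-04 and Zrsr1 0.0027 with limma on TPM. Inpp5f was -1.52e-04 with DESeq2 size factors, -0.0059 with no filter, -9.24e-05 with DESeq2 and -0.042 with limma. With a library left out, Kcnq1ot1 ran from -0.13 to 0.23, Ube3a from -0.29 to 0.16, Zrsr1 from -0.38 to 0.16, Inpp5f from -0.093 to 0.11 and Jade1 from -0.16 to 0.091. Mkrn3 gave no value under a filter of 1 CPM in 2 libraries.

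Replicate numbers are shared by the groups, but same-numbered libraries did not deviate together (correlation -0.183 across 12821 genes), and the main fit did not pair them. With 2 libraries a group, the correlation for crossed numbers has the same size and the opposite sign. Whether crossed libraries share a source of variation was not tested. With the number as a block 2 members were higher and 0 lower, and 584 genes were higher and 278 lower. Igfbp4 then had an adjusted p of 0.0592. The crossed pairing, added after seeing the data, called 5 members higher and 0 lower, and 1352 genes higher and 987 lower.

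The number of libraries, 2 a group, and gene-level rows limit these values. Changes at members with fewer than 10 counts were not detectable, and isoforms and parental copies were not resolved. Whether antisense reads were kept apart is not known, because the strand setting was not given.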
